A study of Mus musculus with 20 samples.

Results

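Among the regions of open chromatin listed for mouse embryonic stem (ES) cells, 4138 of 102373 peaks consisted mostly of repeated DNA (4.04%, 95% Wilson interval 3.92 to 4.16%). A peak was chosen when it was at most 5000 bp wide and at least 80% of its bases were soft-masked, that is, written in lower case in the GRCm38 (mm10) reference genome. Lower case marks DNA masked there as repeated, by a program that is not given in the sources used here. These repeat peaks covered 1.58 Mb, or 2.89% of the 54.5 Mb of all listed peaks. The other 98228 peaks of up to 5000 bp served for comparison, and 7 peaks were wider, of which 1 was mostly repeats. Peaks just inside the limit were chr1:143665003-143665392, chr2:85254860-85255479 and chr3:9370320-9370574, each 80% masked. Peaks just outside it were chr9:11940337-11941320 (79.98%), chr2:27661796-27662729 (79.98%) and chr6:29308146-29308888 (79.95%).

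The assay was ATAC-seq, where a transposase inserts sequencing adapters into DNA that is not packed away. It was run on ZHBTc4 cells, an ES cell line in which a Tet-Off promoter drives the expression of OCT4 and is shut off by doxycycline (dox). All cells carried YPet-MD, a fluorescent protein with a mitotic degron used for sorting, and a lentiviral SNAP-tagged OCT4 with either an active degron (MD-OCT4), which is lost at the exit from mitosis, or an inactive form (MD*-OCT4). The 16 libraries treated with dox for 40 h came from 4 sorted stages of the cell cycle (early G1, late G1, S phase, and late S with G2) of each construct with 2 replicates per group, and 4 further libraries came from unsorted cells without dox. The peak list merges the dox-treated libraries and holds coordinates only, so depth is unknown, no replicate error exists and neither the constructs nor the phases could be compared at the repeat peaks. Intervals below are 95% intervals that cover counting error only and treat regions as independent.

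Most of the repeated DNA of a mammalian genome descends from elements that copied themselves. LINEs carry their own reverse transcriptase, short SINEs such as B1 derive from a small cellular RNA and borrow that machinery, and LTR retrotransposons are related to retroviruses and carry their promoter in long terminal repeats. In ES cells most of these copies are packed into silent chromatin, while some LTRs are bound by transcription factors and act as promoters or enhancers.

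The repeat peaks fell into families of related sequence. In an all-against-all comparison, peaks were joined to a representative, the peak with the most partners, when they matched it at 80% identity or more over at least 50% of the shorter peak. In all, 138 families of 3 or more peaks held 3639 repeat peaks (87.9%), a further 43 pairs were found, and 413 peaks had no partner. The 8 largest families held 1991 peaks (48.1%), with 746, 345, 225, 189, 132, 129, 113 and 112 peaks, and are numbered in that order. For each family a shared stretch of the representative was taken, its longest run of bases aligned in at least 50% as many family peaks as its best-aligned base. That base was aligned in 534 of 746 peaks of family 1, 318 of 345 of family 2, 224 of 225 of family 3, 127 of 129 of family 6 and 111 of 112 of family 8. It was aligned in a minority of the peaks of family 4 (89 of 189), family 5 (58 of 132) and family 7 (32 of 113), whose stretch stands for some of their peaks only. The sequences below show this stretch for 4 of the families on which the results turn, as read 5′ to 3′ on the plus strand of GRCm38, with at most 300 central bases. Capitals mark the 20 bases that were most often unchanged between the family's peaks and the representative, and these bases were unchanged in 95.2 to 99.1% of aligned positions.
Family 1, chr6:142986211-142986510: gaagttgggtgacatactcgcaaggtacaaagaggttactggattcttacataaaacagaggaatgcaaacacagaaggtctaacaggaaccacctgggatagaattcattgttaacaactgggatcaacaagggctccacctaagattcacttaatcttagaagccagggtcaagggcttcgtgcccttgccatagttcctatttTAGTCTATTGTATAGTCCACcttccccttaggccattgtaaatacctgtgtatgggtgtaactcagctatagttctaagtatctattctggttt
Family 2, chr2:40268522-40268821: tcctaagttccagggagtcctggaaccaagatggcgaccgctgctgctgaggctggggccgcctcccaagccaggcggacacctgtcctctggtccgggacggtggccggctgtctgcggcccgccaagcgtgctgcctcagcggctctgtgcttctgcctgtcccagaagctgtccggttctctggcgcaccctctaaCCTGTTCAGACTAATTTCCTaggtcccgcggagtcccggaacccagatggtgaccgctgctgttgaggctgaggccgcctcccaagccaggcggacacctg
Family 4, chr1:84332339-84332638: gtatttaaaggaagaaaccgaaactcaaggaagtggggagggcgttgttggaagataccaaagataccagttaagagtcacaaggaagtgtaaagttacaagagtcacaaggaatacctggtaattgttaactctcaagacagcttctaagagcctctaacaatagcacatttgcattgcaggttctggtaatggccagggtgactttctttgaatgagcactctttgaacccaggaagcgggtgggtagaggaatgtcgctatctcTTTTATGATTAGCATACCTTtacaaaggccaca
Family 8, chr5:64901580-64901699: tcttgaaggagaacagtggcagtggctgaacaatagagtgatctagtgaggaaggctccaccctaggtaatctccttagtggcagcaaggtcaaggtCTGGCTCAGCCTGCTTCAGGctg

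Some of the 8 families could be described from annotated sequences and from the DNA around their copies. The representative of family 3 matched an annotated B1 element at 88.4% identity over 121 bases, and family 3 is termed B1-like here. The representative of family 4 matched an annotated LTR retrotransposon sequence named LTRIS4 at 72.4% identity over 243 bases. The annotated sequences compared included only 5 mobile elements. The representatives of families 1 and 4 matched each other at 80.2% identity over 212 bases, and those of families 2 and 7 at 79.1% over 263 bases, in each case outside the shared stretches. Within 8 kb of 200 evenly spaced copies, a reading frame of at least 300 codons with the phenylalanine-alanine-aspartate-aspartate motif of the LINE reverse transcriptase lay near 181 copies of family 2, 148 of family 6 and 44 of family 7. The same count was 5 to 13 of 200 in the other 5 families. A corresponding retroviral motif lay near 1 of 200 copies of family 4 and near 0 to 5 of 200 in the other families. The median longest frame was 1299 codons around copies of family 2 and 811 around copies of family 6, and both are termed LINE-associated here. Families 1, 5 and 8 are left without a class.

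The representatives were as follows. That of family 1, chr6:142985737-142987132, was intergenic, 2478 bp from the start of 4930434O05Rik. That of family 2, chr2:40268300-40269153, was intergenic, and that of family 3, chr15:58149544-58149691, lay in an intron 1211 bp from the start of Wdyhv1. That of family 4, chr1:84331945-84333631, lay in an intron near Pid1, at 2542 bp. Family 5 was represented by the intergenic chr3:124237473-124238462, family 6 by chr12:91277949-91278109 in an intron, family 7 by the intergenic chr10:49937512-49939131, and family 8 by the intergenic chr5:64901579-64901728, 31033 bp from the start of Tlr1.

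The families differed in how many of their genomic copies were open. The shared stretch of each representative was searched against the whole genome, and a copy at 80% identity or more over at least 80% of the stretch counted as open when it overlapped any listed peak. Since the families were built from open peaks, some open copies had to be found, and the numbers are a description of how many copies were not. For families 4, 5 and 7 they describe copies of a stretch found in a minority of the family's peaks. For family 1, 781 of 1452 copies were open (53.8%, 51.2 to 56.3%). For family 8, 596 of 1330 copies were open (44.8%, 42.2 to 47.5%), and for family 4, 206 of 836 (24.6%, 21.8 to 27.7%). The open share was 13.2% for family 2 (472 of 3566 copies, 12.2 to 14.4%). As a background, 3.70% of all genome windows as long as the stretch of family 1 touched a listed peak, as did 2.51% for family 8, 3.47% for family 4 and 3.65% for family 2.

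The abundant families showed the reverse. Of 168033 B1-like copies of family 3, 3364 were open (2.00%, 1.94 to 2.07%), below the 2.49% of all windows of that length. Of 71748 copies of family 7, 102 were open (0.142%, 0.117 to 0.173%), against 3.56% of windows. Family 6 had 162 open copies of 10589 (1.53%, 1.31 to 1.78%), against 2.62% of windows. Family 5, with 399 open of 12190 copies (3.27%, 2.97 to 3.6%), had an interval that held its window share of 3.28%. When a peak had to cover at least 50% of the copy, the share was 6.42% for family 2, 1.46% for family 5, 1.20% for family 3 and 0.0362% for family 7, each lower by more than 1.5 times.

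**Figure D1:**
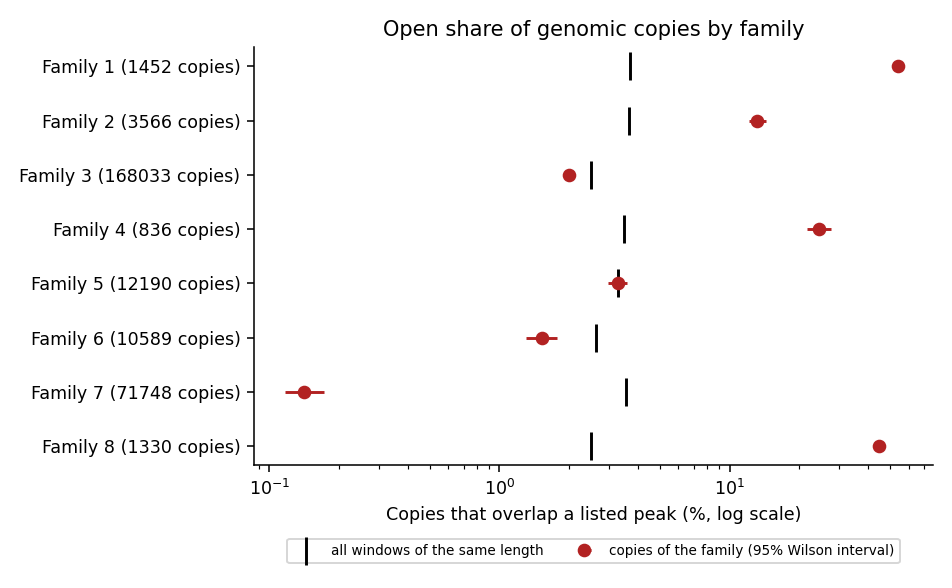
Share of genomic copies that overlap a listed peak (x axis, percent, log scale) for the 8 largest families (y axis), with 95% Wilson intervals as horizontal bars; vertical ticks give the share of all genome windows of the same length that touch a peak. Families 1, 2, 4 and 8 lie to the right of their ticks at 53.8, 13.2, 24.6 and 44.8%, families 3, 6 and 7 to the left at 2.00, 1.53 and 0.142%.

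The peaks sat on the copies rather than beside them in some families only. In family 1, 50.3% of copies were covered by a peak at their centre, the cover was highest 60 bp from it at 51.1%, and it was 1.24% and 1.65% at 1000 bp on either side. In family 8 the cover was 42.9% at the centre, where it was highest, and 1.73% and 3.98% at 1000 bp on either side. Family 4, with a stretch of 380 bp, was covered most at 160 bp from the centre (21.5%). Family 2, with a stretch of 430 bp, was covered most at 300 bp (10.4%), which lies beyond the end of the stretch. At the centre of its copies the cover was 7.09%. It was also one-sided in family 2, at 0.0841% and 1.68% at 1000 bp on either side. Around B1-like copies the pattern was inverted, with 1.20% at the centre, a lowest value of 1.10% at 40 bp from it, and 4.24% on average at 2000 bp. Family 7 likewise had 0.0544% at the centre and 0.625% on average at 2000 bp. Both are families in which the copies were covered less often than the DNA around them.

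**Figure D2:**
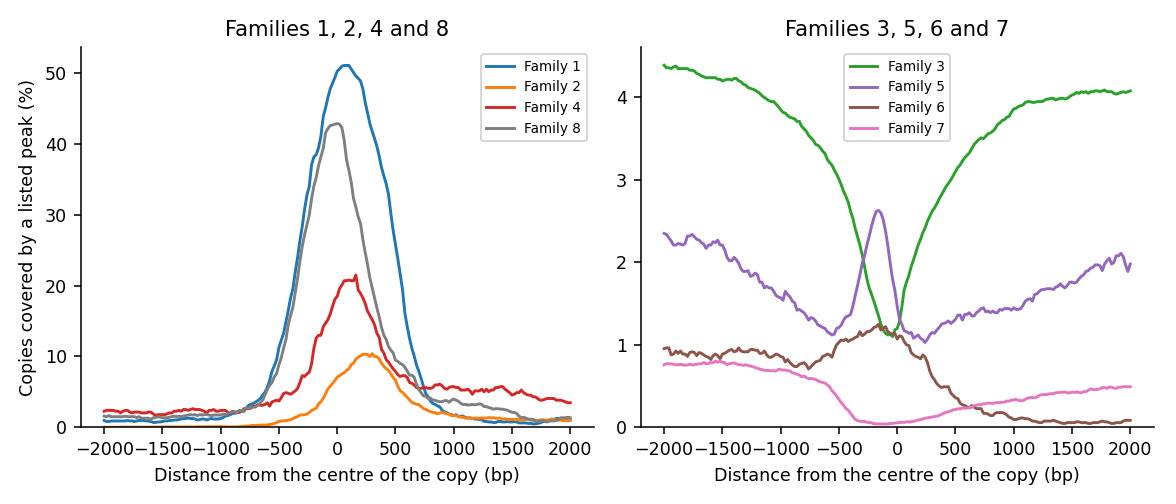
Percent of copies covered by a listed peak (y axis, from 0) at each distance from the centre of the copy (x axis, bp, in the direction of the representative), for families 1, 2, 4 and 8 (left) and 3, 5, 6 and 7 (right, another scale). Families 1 and 8 rise to 51.1 and 42.9% near the centre, whereas family 3 falls to 1.10%.

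Copies of recent repeats are so alike that short reads cannot always be placed, and the handling of reads with several placements is not given in the sources used here. The share of each copy's 75-base words that occur elsewhere in the genome was therefore set beside the open shares. In family 1 the median was 18.9% in open copies and 88.6% in closed copies. Of family 1 copies with over 90% of words repeated, 16 of 347 were open (4.61%, 2.86 to 7.36%), and of those with at most 50%, 654 of 896 were (73.0%, 70 to 75.8%). None of the 320 copies of family 1 on chromosome Y was open (upper limit 1.19%), and without them 69.0% of copies were open (66.2 to 71.6%). In family 8 the open share was 7.94% above 90% repeated words and 48.8% at up to 50%, and in family 4 it was 6.48% and 26.5%. In family 2 these values were 6.46% and 22.1%. The part of read placement in the open shares was not tested.

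Copies closer to the representative were more often open in families 1 and 8 and, up to 95% identity, in family 6. Among family 1 copies with at most 50% repeated words, 60.7% were open at 80 to 85% identity (65 of 107), 67% at 85 to 90%, 85.8% at 90 to 95% and 95.6% at 95 to 100% (43 of 45, 85.2 to 98.8%). In family 8 the 4 values were 41.9, 44.0, 57.3 and 67.4%, with the interval of the lowest class (36.1 to 48%) below that of the highest (52.5 to 79.5%). In family 2 they were 11.9, 15.5, 22.9 and 34.9% and in family 4 they were 22.8, 29.6, 27.9 and 44.0%. In both the intervals of the lowest and highest class overlapped, which does not show that these classes were alike. Over all copies of family 4 the intervals were apart, at 20.4% (16.4 to 25%) and 37.8% (29.4 to 47.1%). Over all copies of family 2 they still overlapped, at 10.7% (8.42 to 13.6%) and 17.8% (13.5 to 23.1%). Up to 95% identity the values were 2.33, 2.18 and 1.66% in the B1-like family and 0.257, 0.2 and 0.0805% in family 7, lower in the closest class. In family 5 they were 3.43, 2.96 and 3.79%. In family 6 they were 0.216% (0.0593 to 0.785%), 1.87% (1.37 to 2.54%) and 2.82% (1.77 to 4.47%), higher in the closest class. Above 95% these 4 families had at most 33 copies. The representative is itself an open peak with the most open partners, so part of this order follows from how it was chosen.

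**Figure D3:**
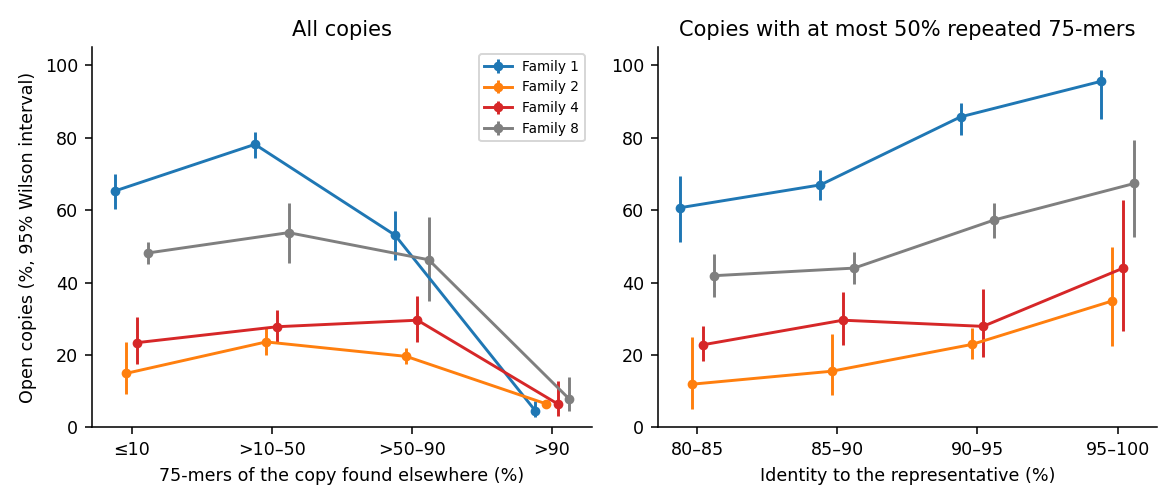
Open copies (y axis, percent, 95% Wilson intervals) of families 1, 2, 4 and 8 by the share of the copy's 75-base words that occur elsewhere in the genome (left) and, for copies with at most 50% such words, by identity to the representative (right). Above 90% repeated words all 4 families fall to between 4.61 and 7.94%; on the right, family 1 goes from 60.7 to 95.6%.

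Open copies also differed from closed ones in where they lay. Another listed peak was found within 10000 bp of 51.2% of open and 12.5% of closed family 1 copies, a difference of 38.7 percentage points (34.3 to 42.9), and of 20.6 points (13.5 to 27.1) among copies with at most 50% repeated words. In family 3 these shares were 85.6% and 61.9% (difference 23.6, 22.4 to 24.8). In family 8 they were 57.2% and 30.8% (difference 26.4, 21.1 to 31.5). The difference was above 0 in all 8 families, and was smallest in family 2, at 4.50 points (0.463 to 8.88).

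On chromosome X fewer copies were open. In family 1, 42 of 135 X copies (31.1%) and 739 of 997 autosomal copies (74.1%) were open, a difference of -43.0 percentage points (-50.7 to -34.3), and among copies with at most 50% repeated words the difference was -25.4 points (-37.6 to -13.1). In family 8, 14.2% of X and 48.6% of autosomal copies were open (-34.4 points, -40.0 to -27.1). All listed peaks were sparser on X, since 1.13% of X windows as long as the stretch of family 1 touched a peak and 4.01% of autosomal windows did. For family 6 the interval held 0 (-0.461 points, -1.02 to 0.376). For family 4 the difference of -13.3 points (-19.9 to -3.25) became 1.19 points (-12.3 to 19.7) among copies with at most 50% repeated words.

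Repeat peaks as a group were small and poor in CpG. Their median width was 270 bp (261 to 279), with quartiles of 188 and 489 bp and a range of 135 to 3943 bp, against 422 bp (420 to 425) in the other peaks. Widths of at least 1000 bp occurred in 3.67% of repeat peaks and 12.8% of the others. Median GC content was 45.3% (44.9 to 45.7%) against 50.3% (50.2 to 50.3%), and the ratio of observed to expected CpG was 0.192 (0.185 to 0.199) against 0.261 (0.260 to 0.263). The families did not share these values. The LINE-associated families 2 and 6 had median GC contents of 63.1% and 58.2% and CpG ratios of 0.559 and 0.564, above those of the other peaks. Family 1 had 42.4% GC and family 5 a CpG ratio of 0.0519. Median widths ran from 188 bp in family 7 to 447 bp in family 1.

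**Figure D4:**
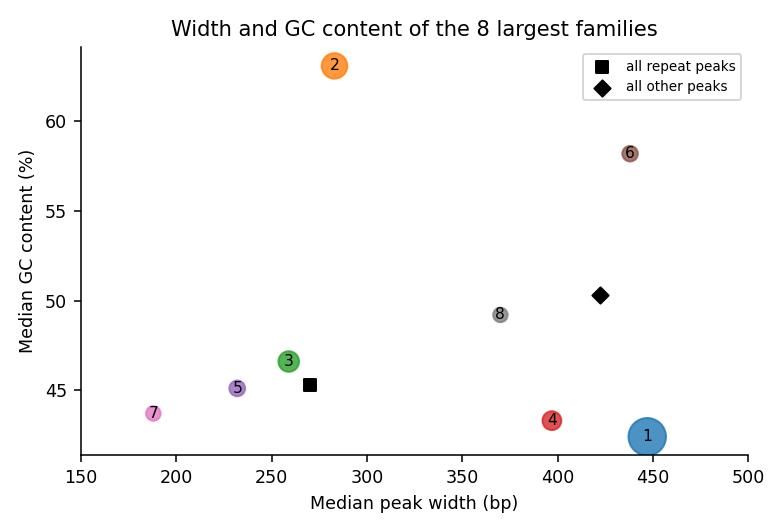
Median peak width (x axis, bp) and median GC content (y axis, percent) of the peaks of the 8 largest families, with circle area in proportion to the number of peaks (112 to 746) and the family number inside. The square is the median of all repeat peaks (270 bp, 45.3%) and the diamond that of the other peaks (422 bp, 50.3%); families 2 and 6 lie highest at 63.1 and 58.2%.

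Most repeat peaks still held words that occur at no other place. The median share of 24-base words found elsewhere in the genome was 70.1% (69.4 to 70.7%), against 0% in the other peaks, and 83.2% of repeat peaks had at least 50% of such words. Since peaks were chosen by their masked bases, this contrast follows in part from the rule. For 75-base words the median was 3.86% (3.22 to 4.96%), 41.5% of repeat peaks had none that was repeated, and 24 peaks had only repeated ones. By family, the median for 75-base words ran from 0% in family 7 to 47.1% in family 2.

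Repeat peaks were less often near transcript starts than other peaks. Positions of mostly masked DNA outside the peaks were not counted, so the shares compare peaks only. Of them, 4.86% (201 of 4138) were within 1000 bp of an annotated transcript start and 25.9% of the others were, a difference of -21.1 percentage points (-21.7 to -20.3). A protein-coding start was within that distance of 49 repeat peaks (1.18%). A start lay inside 15 repeat peaks (0.362%) and inside 17.6% of the others. Among distal peaks, those farther than 1000 bp from any start, 64% of repeat peaks and 43.9% of the others were centred between genes (difference 20, 18.5 to 21.5), and 34.2% and 48.8% in introns (difference -14.6, -16.1 to -13.0). Coding exons held the centre of 6 distal repeat peaks (0.152%) and of 3.24% of the others. Counted over all peaks of a family, distal or not, family 3 departed from this pattern in introns, which held 58.7% of its peaks. Its share within 1000 bp of a start, 8.89%, was still below the 25.9% of the other peaks. Between genes lay 76.7% of all peaks of family 6 and 76.2% of family 4.

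The start of a protein-coding transcript lay inside 5 repeat peaks, which are all that the rule could name. The widest 2 were chr14:19415722-19419664 at Gm21738, which was also the widest repeat peak (3943 bp), and chr2:98666245-98667321 at Gm10800. Whether these 2 overlap blacklisted regions could not be tested, so they are not taken as open promoters. Both fell into the same family, the 55th by size, and had GC contents of 34.5% and 35.3%. The other three were chr17:21730707-21731178 at Zfp229, a zinc finger gene, whose peak belonged to family 3, chr19:37198018-37198438 at Cpeb3, which encodes an RNA-binding protein of the cytoplasmic polyadenylation machinery, and chr2:86020456-86020754 at the olfactory receptor gene Olfr1033. After Gm21738, the widest repeat peaks were chrY:141761-144960, chrY:90733935-90736383, chrY:90810759-90813123 and chr4:147094773-147097085, of 3200, 2449, 2365 and 2313 bp.

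Repeat peaks were more isolated than other peaks. Another listed peak lay within 10000 bp of 60.2% of repeat peaks and 78.5% of the others, a difference of -18.3 percentage points (-19.8 to -16.8). The share ran from 23.3% in family 6 and 26.1% in family 2 to 87.6% in family 3. Only 488 repeat peaks stood in 226 runs of 2 or more repeat peaks with gaps of at most 10000 bp, and no run held more than 6. The 3 longest runs by number, with 6 repeat peaks each, were chr3:6295668-6317094, chr8:20100738-20117231 and chr13:12961847-12968824, and no annotated gene overlapped any of them. In the runs on chromosomes 3 and 13, 3 of the 6 peaks belonged to family 6 and to family 7, respectively.

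By chromosome, repeat peaks made up 2.35% (1.85 to 2.99%) of the peaks of chromosome 19, the lowest share, and 2.98 to 5.15% of those of the other autosomes. On chromosome X they made up 9.04% (163 of 1804 peaks, 7.80 to 10.4%) and on Y 31.6% (12 of 38, 19.1 to 47.5%). Per Mb of assembled sequence, however, X held 0.997 and Y 0.136 repeat peaks, against 1.12 to 1.94 on the autosomes. Masked bases made up 46.8% of X and 96.3% of Y, against 30.6 to 35.8% of the autosomes. Over the whole genome 36.4% of bases were masked, and 16.6% of gap-free windows of 415 bp, the median width of all peaks, were at least 80% masked, so mostly repeated DNA was rarer among peaks (4.04%) than among such windows.

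Of the 7 motifs searched, only the octamer bound by OCT4 was more frequent in repeat peaks. Median GC content differed between the groups (45.3% and 50.3%), and the part of base composition in the motif shares was not tested. Motifs were searched on both strands in distal peaks: OCT (ATGCAAAT), the composite OCT4::SOX2 element (CATTGTTATGCAAAT, up to 2 mismatches), which contains an octamer, SOX (CC, then A or T, TTGT, then C or T), ESRRB (TCAAGGTCA), KLF, AP-2 and CTCF (up to 1 mismatch). An OCT match was found in 182 of 3937 distal repeat peaks (4.62%) and in 2.41% of the other distal peaks, a difference of 2.21 percentage points (1.59 to 2.92), and matches per kb were 0.148 and 0.0593. The 6 other motifs were rarer in repeat peaks. CTCF matches were in 3.96% against 14.2% (difference -10.2, -10.8 to -9.51), SOX in 9.09% against 13.1%, KLF in 3.48% against 6.87%, ESRRB in 1.80% against 3.15% and AP-2 in 1.04% against 2.23%. For OCT4::SOX2 there were 2 of 3937 against 196 of 72775 (difference -0.219, -0.273 to -0.0798). With up to 3 mismatches the OCT4::SOX2 difference was -1.52 points. The study searched motifs with HOMER, so its counts of this element are on another measure. With at most 1 mismatch the OCT4::SOX2 difference turned to 0.0247 points, as the same 2 repeat peaks remained while most matches in other peaks were lost. Matches per kb were lower in repeat peaks for each of these 6 motifs too.

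A large share of the octamers came from family 4, whose representative matched an annotated LTR retrotransposon sequence. Of 189 repeat peaks with an octamer, 68 (36.0%) belonged to it, and these were 36.0% of the 189 peaks of that family (29.5 to 43.0%). Without family 4, 3.09% of distal repeat peaks held an octamer, 0.677 percentage points above the other peaks (0.158 to 1.29). Genomic copies of family 4, taken with 200 bases on each side, held the octamer in 81.6% of open copies (168 of 206) and 76.2% of closed copies (480 of 630), a difference of 5.36 points whose interval held 0 (-1.29 to 11.2). The searched stretch itself contains the octamer, so copies found by their match to it tended to hold it, open or closed. These shares therefore describe copies of that stretch and not all peaks of the family. The octamer, in capitals, is shown with 20 bases on each side for 3 of the widest family 4 peaks that carry it, to show how alike the surrounding bases are, each read on the strand of the octamer in GRCm38.
chr1:84332488-84332535, minus strand: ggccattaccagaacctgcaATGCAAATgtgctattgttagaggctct
chr6:49416596-49416643, plus strand: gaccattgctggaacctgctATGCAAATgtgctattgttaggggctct
chr1:130247042-130247089, minus strand: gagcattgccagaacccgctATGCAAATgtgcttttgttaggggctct

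Both repeat peaks with an OCT4::SOX2 match, chr2:17892772-17893275 and chr9:6002358-6002723, belonged to family 4 as well, and each had 1 mismatch. Among genomic copies of family 4 with their flanks, 5 of 206 open and 1 of 630 closed copies held a match of up to 2 mismatches (difference 2.27 percentage points, 0.7 to 5.40). Open copies overlap a peak by definition, so this is a description only. No repeat peak matched the element exactly, and 29 had 3 mismatches. The match, in capitals, is shown with 15 bases on each side, on the plus strand, because the octamer of the sequences above forms part of it.
chr2:17892893-17892937: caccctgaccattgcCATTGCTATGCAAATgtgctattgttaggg
chr9:6002471-6002515: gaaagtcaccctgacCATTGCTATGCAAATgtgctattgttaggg

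Other motifs were also unevenly spread over the families. CTCF, which binds insulators and loop anchors, had a match in 27 of 112 peaks of family 8 (24.1%, 17.1 to 32.8%), above the 14.2% of other distal peaks, and in none of the peaks of families 2, 4, 5 and 6. SOX matches were in 33 of 132 peaks of family 5 (25%) and 124 of 746 of family 1 (16.6%). The LINE-associated families 2 and 6 held few of the 7 motifs. SOX, their commonest, was in 0.580% and 1.55% of their peaks.

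**Figure D5:**
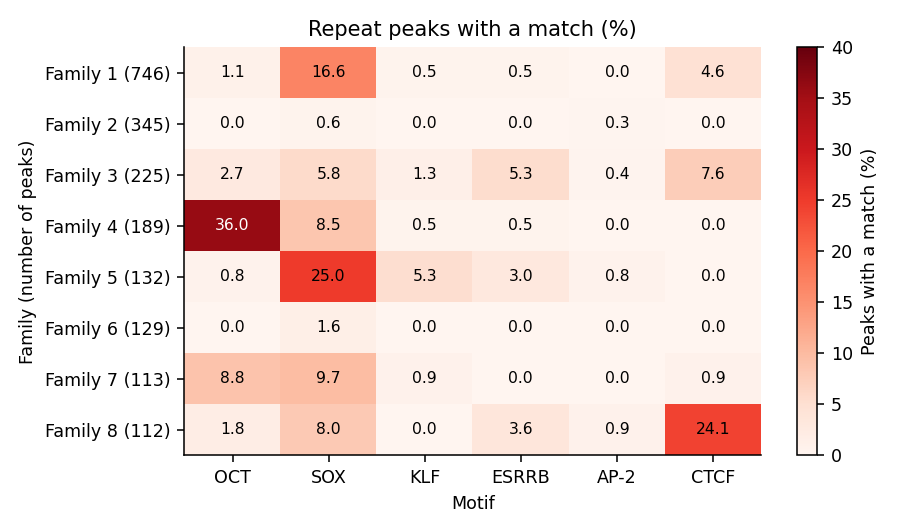
Percent of the peaks of each of the 8 largest families (rows, number of peaks in brackets) that hold a match to each of 6 motifs (columns), with the value printed in each cell and shown by colour. OCT in family 4 (36.0%), SOX in family 5 (25%) and CTCF in family 8 (24.1%) stand out.

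In some families the motif content of open copies with their flanks differed from that of closed copies. Of 56 differences (7 motifs in 8 families, copies taken with 200 bases on each side, intervals not adjusted for their number), 15 lay above 0 with their interval and 1 below. An open copy overlaps a peak by definition, so the copy with its flanks always holds peak sequence, which can lie outside the copy. The differences describe copies with their flanks, not the copies alone. Taken so, open B1-like copies held a CTCF match in 8% of cases and closed ones in 0.869% (difference 7.13, 6.26 to 8.09). Read in the other direction, 15.8% of B1-like copies with a CTCF match were open and 1.86% of those without. ESRRB, a nuclear receptor of the pluripotency network, had matches in 5.02% of open and 1.92% of closed B1-like copies (difference 3.11, 2.41 to 3.90). In family 5, KLF matches were in 18.5% of open and 5.48% of closed copies (difference 13.1, 9.53 to 17.2). In family 7, whose copies were seldom open, CTCF matches were in 14 of 102 open copies (13.7%) and 0.268% of closed ones (difference 13.5, 8.09 to 21.5). Of the 113 peaks of family 7 itself, 1 held a CTCF match (0.885%). In family 8, CTCF matches were in 23.2% of open and 18.4% of closed copies (difference 4.76, 0.394 to 9.19), which became 2.26 points (-2.53 to 7.06) among copies with at most 50% repeated words.

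The SOX difference in family 1 changed direction with the copies compared. Over all copies, 36.2% of open and 64.2% of closed copies held a match (difference -28.0, -32.8 to -23.0). Among copies with at most 50% repeated words it was 38.8% and 28.1% (difference 10.7, 3.74 to 17.2). The B1-like and family 5 differences kept their direction in that subset, at 6.84 points for CTCF (5.88 to 7.93), 3.30 for ESRRB (2.49 to 4.24) and 14.1 for KLF (10.3 to 18.5).

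Repeat peaks near the genes of 3 lists were counted. Of 20 genes of the pluripotency network, 4 had a repeat peak within 50000 bp of their start, and 17.2% of all 21938 protein-coding genes had one. The windows of the 20 genes held 297 peaks of any kind, of which 6 were repeat peaks. Pou5f1, which encodes OCT4, had 2 repeat peaks among 18 peaks, the nearest at 8898 bp, and Zfp42, a marker of the naive state, had 2 among 17. Dppa5a and Utf1 had 1 each. Nanog, Sox2, Klf4 and Esrrb had none, and the nearest repeat peak to Esrrb was 831176 bp away. Of 10 genes expressed at the 2-cell stage, 3 had a repeat peak in reach, namely Zscan4a with 3 of its 5 peaks, Tcstv1 with 1 of 3 and Tcstv3 with 1 of 4. Of 10 genes that silence repeats, 5 had 1 each. These were Setdb1, a histone methyltransferase, Zfp809, a zinc finger protein that recognises retroviral DNA, Morc3, Tasor (annotated as Fam208a) and Mphosph8. With lists this short the counts are only a description.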

How the data were processed

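ATAC-seq was performed in 20 libraries. Per the methods of the study, the authors aligned reads to GRCm38 (mm10) with STAR 2.6.1c, removed duplicates with Picard, called peaks with MACS2 2.1.1.20160309 and joined the peaks found after dox into a single list. The deposited list has 3 columns, the chromosome, start and end of each peak, with no score or count. These deposited values are coordinates in bp and carry no other unit. The methods name filters for width, for regions called in input samples and for blacklisted regions. The first is not applied in this list, since 7 peaks exceed 5000 bp, and the others could not be tested. The limma comparison of the constructs was not run, as no values per library were at hand.

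Soft masking was read from the RefSeq sequence of GRCm38, whose masking program is not given in the sources used here. Transcript starts came from GENCODE (132629 positions). Families and copies were found with blastn 2.17.0 without a low-complexity filter, and overlapping hits of a stretch counted as 1 copy. The rule for named regions took the 8 representatives, the 5 widest peaks, 3 peaks on each side of the 80% limit, up to 10 protein-coding starts, 3 runs, up to 5 OCT4::SOX2 matches and the 3 gene lists. The members, the gene lists and the tests were chosen with earlier results of these data known. How reads with several placements were handled is not given in the sources used here. Shares have Wilson intervals, their differences Newcombe intervals, and medians binomial order-statistic intervals. The functions were tested on simulated data. The tools were matplotlib 3.10.9, numba 0.67.0, scipy 1.17.1, pandas 2.3.3 and numpy 2.4.6 under Python 3.11.15. The sequence of family 3 is not reported here.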

Additional observations from a re-analysis of the deposited data

How the results depend on the processing

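No paired analysis was possible because only peak coordinates, merged over libraries, were at hand, and the limma fits with and without the replicate block and without single replicates were not run. Of 81 alternative values, 49 stayed the same, and every difference in promoter-proximal share, neighbours and motifs other than OCT4::SOX2 kept its direction and its side of 0. The number of repeat peaks was 2359 at 90% masking, 812 with every base masked and 1868 for peaks of at least 300 bp. Their median width was 285 bp at 70% masking, 253 bp at 90%, 206 bp with every base masked and 526 bp for peaks of at least 300 bp, in each case below that of the other peaks. Median GC content was 48.4% with every base masked and 43.8% for peaks of at least 300 bp. The median share of repeated 24-base words was 62.8% at 70% masking, 77.6% at 90% and 85.8% with every base masked, and 3.86% for 75-base words. For OCT4::SOX2 the difference was -0.175 percentage points at 90% masking and -0.120 in the central 200 bp, with intervals that held 0, and 0.0247 with at most 1 mismatch. With up to 3 mismatches it was -1.52 points.

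Copies of whole representatives had been set down as the measure. These gave 1 copy each for families 1 and 4 and 4 for family 2, and the shared stretch was chosen after seeing the data. It moved the open share of family 2 from 50.0 to 13.2% and of family 5 from 8.73 to 3.27%. With whole representatives, copies of at least 90% identity were open in 100% (1 copy) for family 2, 1.57% for family 3, 1.95% for family 6 and 58.5% for family 8. Asking a peak to cover at least 50% of the copy of the whole representative gave 1.10% for family 3, 3.14% for family 5, 1.15% for family 6 and 0.00946% for family 7. On the shared stretch, also tried after seeing the data, the same demand gave 49.6% for family 1, 6.42% for family 2, 1.20% for family 3, 17.9% for family 4, 1.46% for family 5, 1.08% for family 6, 0.0362% for family 7 and 42.9% for family 8. At the 90% identity limit for families, 2617 peaks were in families of 3 or more, and 3092 with alignments over 80% of the shorter peak. Depth is unknown, so a copy called closed may have been missed.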

Other observations

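Short tandem repeats made up little of the repeat peaks. Perfect tandem stretches of at least 20 bp with units of up to 6 bases occurred in 225 repeat peaks (5.44%, 4.79 to 6.17%) and in 6.29% of the other peaks (6.14 to 6.44%). They covered at least 50% of the bases in 13 repeat peaks (0.314%) and in none of the 98228 others, which allows a share of up to 0.00391% by the Wilson interval. Simple repeats are among the masked bases, so this contrast also follows in part from the rule.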
